A study of Arabidopsis thaliana with 12 samples.

Results

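On the ATH1 array, 65 of 22746 non-control probe sets (0.286%) had higher intensities in *hub1-2* and *rdo3* siliques than in wild-type L*er*, with *rdo2-1* siliques close to L*er*. A probe set was a member where all 3 *hub1-2* arrays and all 3 *rdo3* arrays lay above all 3 L*er* arrays and the mean log2 difference from L*er* was at least 0.5 in each of these mutants. In addition, the mean log2 difference of *rdo2-1* from L*er* had to lie between -0.4 and 0.3, and the mean intensity in *hub1-2* had to be over 24. This floor was set on *hub1-2* only. The members were chosen on these values, so their differences from L*er*, and from *rdo2-1*, are given as a description with no test. The rule set no limit on the difference between *hub1-2* and *rdo3*, which was tested. Since it used the arrays of both and has the floor in *hub1-2* alone, it lets in members that are low in *rdo3* and none that are low in *hub1-2*.

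The RNA came from whole siliques, pods that held seeds close to maturity, harvested at 18 to 19 days after pollination. Each genotype had 3 arrays with 1 RNA sample per array: *hub1-2*, *rdo3* and *rdo2-1*, which are all mutants in the L*er* ecotype, and wild-type L*er*. The *hub1-2* mutant, labelled with its older name *rdo4*, carries a mutation in *HUB1*. In *rdo2-1* a short deletion removes the zinc finger of the transcription elongation factor TFIIS, and the sources used here do not give the gene mutated in *rdo3*. Each mutant is represented by a single line, and no second allele was on the arrays. In RNA from whole siliques, a change in the share of a cell type and a change in RNA per cell cannot be told apart.

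HUB1 is an E3 ligase that attaches a single ubiquitin to histone H2B on transcribed genes, a mark that accompanies transcription initiation and elongation. TFIIS lets RNA polymerase II resume transcription after it has stalled. The *reduced dormancy* (*rdo*) mutants germinate more readily than wild type after harvest, and dormancy is set up in the last phase of seed maturation, the phase in which these siliques were sampled.

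Intensities are GC-RMA values on a linear scale in arbitrary units, and their precision is limited by the 3 arrays of each genotype. Within a genotype, log2 values correlated at 0.994 in *hub1-2*, 0.986 to 0.994 in *rdo3*, 0.985 to 0.989 in *rdo2-1* and 0.985 to 0.991 in L*er*. The *HUB1* probe set gave 160.4, 169 and 212 in *hub1-2*, 45.7, 84.8 and 56.7 in *rdo3*, 38.9, 36.6 and 48.3 in *rdo2-1* and 86.8, 80.9 and 67.8 in L*er*, so transcript levels of *HUB1* were no check of the *hub1-2* label. Seed storage transcripts, which mark the embryo, were abundant on all 12 arrays, with the sum of the 3 measured of 9 listed genes at 73065 to 87063 in *hub1-2*, 82561 to 87420 in *rdo3*, 96714 to 101593 in *rdo2-1* and 77230 to 86380 in L*er*. For 4 of 6 genes of seed coat flavonoid synthesis the summed intensity was 369 to 437 in *hub1-2*, 369.6 to 723 in *rdo3*, 201 to 636 in *rdo2-1* and 852 to 2283 in L*er*, below L*er* in every mutant. *BAN*, one of them, was low throughout, with means of 5.77 in *hub1-2*, 6.03 in *rdo3*, 5.71 in *rdo2-1* and 5.60 in L*er*. For 3 of 7 genes of silique wall ripening and dehiscence the sum was 199 to 229 in *hub1-2*, 438 to 544 in *rdo3*, 591 to 786 in *rdo2-1* and 435 to 480 in L*er*, and for *AP3*, a floral gene, the range was 100 to 163 in *hub1-2*, 350.2 to 461 in *rdo3*, 441 to 576 in *rdo2-1* and 418 to 510 in L*er*. The silique wall and floral markers were thus lowest in *hub1-2*, and their part in the members' levels was not tested. None of 8 listed genes of the green silique wall has a named probe set here.

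The rule was met far more often in *hub1-2* than in *rdo3*. The *hub1-2* conditions held for 1866 probe sets, the *rdo3* conditions for 454 and both for 206, of which 187 passed the floor. *rdo2-1* lay above its window in 110 of these 187 and below it in 12. Over the 65 members, the mean log2 difference from L*er* was 0.51 to 2.60 in *hub1-2* (median 0.93) and 0.50 to 1.62 in *rdo3* (median 0.78), and in *rdo2-1* it was -0.37 to 0.29 (median 0.033), above 0 for 40 members and below 0 for 25. It reached 1 for 27 members in *hub1-2*, for 12 in *rdo3* and for 7 in both. Among the probe sets kept for testing, which include all 65, the medians of the same differences were 0.024 in *hub1-2*, -0.010 in *rdo3* and -0.0098 in *rdo2-1*.

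The mean intensities of the members were 26.1 to 7979 in *hub1-2* (median 134), 15.04 to 7836 in *rdo3* (median 120.1), 10.2 to 4801 in *rdo2-1* and 9.86 to 4020 in L*er* (median 66.7). For *MPK14*, *CRF1*, *AT5G24490* and *AT2G36970* the L*er* mean lay under the median of all probe sets on the array, which was 11.6 to 12.1, so the size of their differences from L*er* is uncertain. In 41 members (63.1%) all 3 *rdo2-1* arrays lay below all 6 arrays of *hub1-2* and *rdo3*, against 9.19% of the kept probe sets, a count that the rule largely fixes. In another 22 members 1 *rdo2-1* array was not below, and in 2, *SRO5* and *BIK1*, 2 were not.

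**Figure D1:**
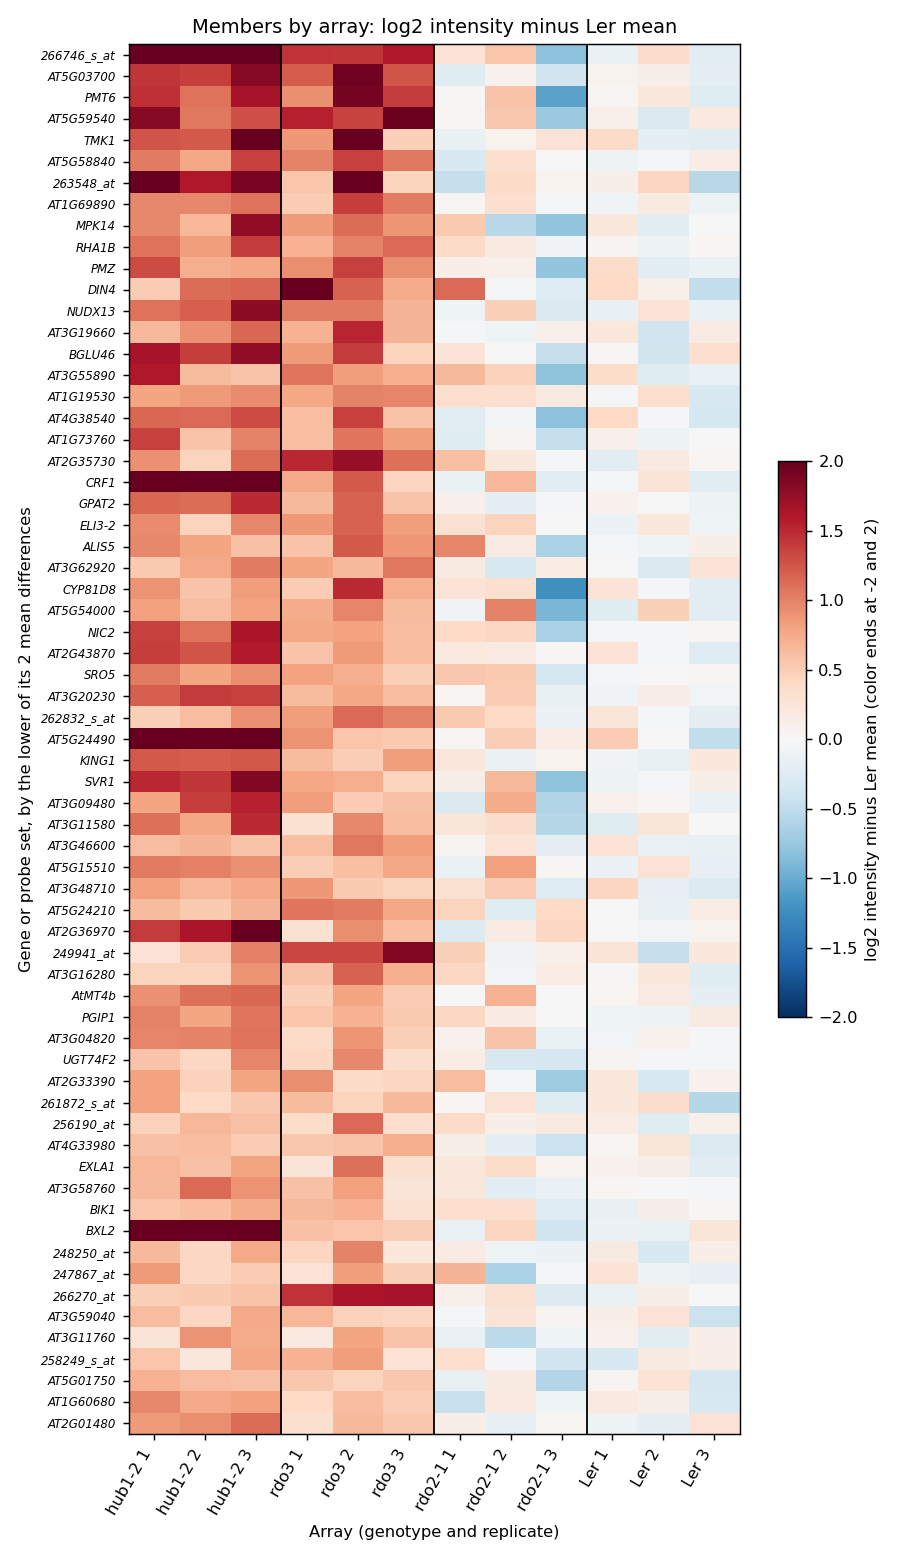
Log2 intensity minus the L*er* mean for each of the 65 members (rows, ordered by the lower of the mean differences of *hub1-2* and *rdo3*) on each of the 12 arrays (columns), with the color scale ending at -2 and 2. The 6 columns of *hub1-2* and *rdo3* are above 0 in every row, as the rule requires, and the third *rdo2-1* column is the bluest.

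Single arrays shaped the set. *rdo3* replicate 2 was the highest *rdo3* array in 43 of the 65 members (66.2%), against 37.8% of the kept probe sets. Without it, 16 members had a mean difference from L*er* under 0.5 in *rdo3*, and the rule gave 55 probe sets, 49 of them among the 65. *rdo2-1* replicate 3 was the lowest *rdo2-1* array in 44 members (67.7%), against 35.1% of the kept probe sets. Without it the rule gave 54 probe sets, 48 of them among the 65. The L*er* arrays mattered nearly as much. Without L*er* replicate 1, 2 or 3 the rule gave 91, 77 and 68 probe sets, with 56, 51 and 53 among the 65. With any other array left out, 57 to 65 of the 65 remained. In the plot of the spread on each array, the median member lay 0.95, 0.79 and 1.03 above the L*er* mean on the log2 scale in *hub1-2*, 0.67, 0.99 and 0.62 in *rdo3*, 0.14, 0.22 and -0.14 in *rdo2-1* and 0.041, -0.016 and -0.093 in L*er*.

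**Figure D2:**
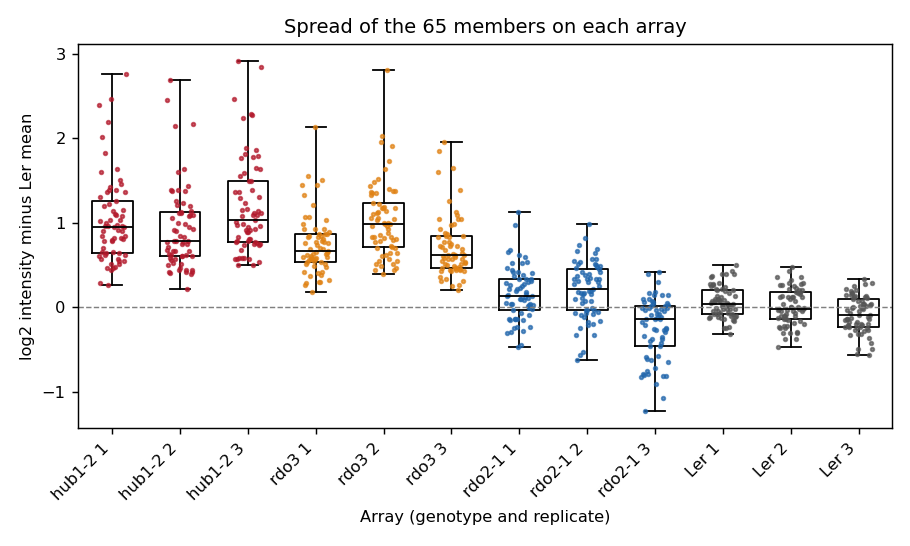
Log2 intensity minus the L*er* mean of the 65 members (points) on each of the 12 arrays, with boxes from the lower to the upper quartile, a line at the median and whiskers to the lowest and highest member. *rdo3* replicate 2 has a median of 0.99, above the 0.67 and 0.62 of the other *rdo3* arrays, and *rdo2-1* replicate 3 has the lowest median at -0.14.

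A role could be given to 37 members from their annotation or textbook knowledge, and these were put into groups with their values known. The largest group held 9 members annotated as enzymes of detoxification and redox chemistry, with a mean log2 difference from L*er* of 0.66 to 2.44 in *hub1-2*, 0.50 to 1.62 in *rdo3* and -0.37 to 0.25 in *rdo2-1*. A probe set of the _s_at type, annotated to glutathione S-transferases, stood for enzymes that couple glutathione to reactive compounds and does not separate these genes. Its intensities were 2780, 2893 and 2924 in *hub1-2*, 1443, 1429 and 1609 in *rdo3*, 645, 773 and 299 in *rdo2-1* and 483, 676 and 452 in L*er*. The *hub1-2* arrays were highest, *rdo3* lay between, and the *rdo2-1* arrays scattered around L*er*, with replicate 3 below all of L*er*. *ELI3-2*, a gene of the cinnamyl alcohol dehydrogenase family, had 7721, 5427 and 7780 in *hub1-2*, 7312, 9024 and 7172 in *rdo3*, 4964, 5469 and 3969 in *rdo2-1* and 3702, 4608 and 3750 in L*er*. One *hub1-2* array lay just below one *rdo2-1* array, although all 6 arrays of *hub1-2* and *rdo3* were above L*er*.

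*CYP81D8*, encoding a cytochrome P450, had 929.5, 735 and 885 in *hub1-2*, 708, 1393 and 819 in *rdo3*, 599.7, 618 and 213 in *rdo2-1* and 601, 484 and 423 in L*er*. All 3 *hub1-2* and all 3 *rdo3* arrays were above all arrays of *rdo2-1* and L*er*, and the lowest value was that of *rdo2-1* replicate 3. *UGT74F2*, encoding a glucosyltransferase that acts on salicylic acid, had 2250, 2013 and 2971 in *hub1-2*, 2014, 2948 and 1931 in *rdo3*, 1674, 1208 and 1196 in *rdo2-1* and 1560, 1486 and 1479 in L*er*. For this gene the log2 difference of *rdo3* from L*er* was 0.58 with all arrays and 0.39 without *rdo3* replicate 2. The 2OG-Fe(II) oxygenase family gene *AT5G59540* had the highest mean difference from L*er* in *rdo3* among the members, 1.62, beside 1.40 in *hub1-2* and -0.06 in *rdo2-1*. Its values were 143, 84.02 and 98.9 in *hub1-2*, 118, 103 and 157 in *rdo3*, 41.3, 58.5 and 24 in *rdo2-1* and 43.2, 32.8 and 46.1 in L*er*, with no overlap between both mutants and the other genotypes. *AT5G54000* of the same family (log2 difference of 0.75 in *hub1-2* and 0.78 in *rdo3*), the monooxygenase gene *AT4G38540* (1.20 in *hub1-2* and 0.85 in *rdo3*), the aldo/keto reductase gene *AT1G60680* (0.84 in *hub1-2* and 0.50 in *rdo3*) and the UDP-glucosyltransferase gene *AT2G36970* (1.77 in *hub1-2* and 0.61 in *rdo3*) complete the group. *AT4G38540* had the lowest difference of *rdo2-1* from L*er* of all members, -0.37. In *AT5G54000* the second *rdo2-1* array, at 748, was as high as the highest *rdo3* array, at 746.

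Enzymes and proteins of the cell wall and of glycosides made up 5 members, at 0.68 to 2.19 above L*er* on the log2 scale in *hub1-2*, 0.55 to 0.90 in *rdo3* and -0.06 to 0.22 in *rdo2-1*. *BXL2*, encoding a beta-xylosidase that removes xylose from cell wall polysaccharides, had 76.2, 73.7 and 78.8 in *hub1-2*, 25.1, 24.5 and 23.6 in *rdo3*, 15.2, 22.4 and 12.7 in *rdo2-1* and 15.4, 15.2 and 19.9 in L*er*. The *hub1-2* arrays were far above the others, while *rdo3* was just above *rdo2-1* replicate 2. *AT2G43870*, encoding a polygalacturonase family protein, a class of pectin-degrading enzymes, had 683, 625 and 787 in *hub1-2*, 389, 471 and 401 in *rdo3*, 297, 293 and 264 in *rdo2-1* and 319, 255 and 218 in L*er*. All *hub1-2* arrays were above all *rdo3* arrays, which were above all L*er* arrays. *BGLU46*, a beta-glucosidase gene, differed from L*er* by 1.60 in *hub1-2*, 0.90 in *rdo3* and -0.06 in *rdo2-1*. *PGIP1*, encoding an inhibitor of fungal polygalacturonases, differed by 0.95 in *hub1-2*, 0.59 in *rdo3* and 0.20 in *rdo2-1*, and *EXLA1*, of the expansin-like family, by 0.68 in *hub1-2*, 0.56 in *rdo3* and 0.22 in *rdo2-1*. Without *rdo3* replicate 2 the *rdo3* value of *EXLA1* was 0.29, the lowest of all members.

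Kinases and kinase subunits were 5 members. *TMK1*, encoding a transmembrane leucine-rich repeat kinase of auxin signalling at the cell surface, had 203, 198 and 413 in *hub1-2*, 155, 595 and 117 in *rdo3*, 76.2, 88.8 and 104 in *rdo2-1* and 111, 74.4 and 73.3 in L*er*. *rdo3* replicate 2 was the highest of all 12 arrays, and the log2 difference of *rdo3* from L*er* was 1.39 with it and 0.67 without it. *MPK14*, a mitogen-activated protein kinase gene, had 22.02, 18.01 and 38.5 in *hub1-2*, 20.4, 24.6 and 20.9 in *rdo3*, 16.2, 7.69 and 6.56 in *rdo2-1* and 13.2, 9.71 and 11.3 in L*er*, so its values were low throughout and those of L*er* close to the array median. *KING1*, encoding a regulatory subunit of the energy-sensing kinase SnRK1, had 304, 302 and 306 in *hub1-2*, 202, 183 and 232 in *rdo3*, 152, 120.5 and 137 in *rdo2-1* and 124, 117 and 151 in L*er*. Its *hub1-2* arrays were the most even of all members, with an SD of 0.0094 on the log2 scale. The immune kinase gene *BIK1* differed from L*er* by 0.63 in *hub1-2*, 0.55 in *rdo3* and 0.14 in *rdo2-1*, and *AT3G58760*, annotated as an ankyrin protein kinase gene, by 0.89 in *hub1-2*, 0.55 in *rdo3* and -0.04 in *rdo2-1*.

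Genes of transcription, chromatin and ubiquitin transfer were 7 of the members with a stated role. *CRF1*, a cytokinin response factor with an AP2 domain, had 45.6, 72.7 and 84.5 in *hub1-2*, 18.99, 26.4 and 15.1 in *rdo3*, 10.2, 17.9 and 9.71 in *rdo2-1* and 10.9, 13.5 and 9.62 in L*er*. The *hub1-2* arrays stood apart, and the highest *rdo2-1* array was above the lowest *rdo3* array. *RHA1B*, encoding a RING finger protein, a class that holds many ubiquitin ligases, had 666, 556 and 822 in *hub1-2*, 508, 623 and 682 in *rdo3*, 406, 356 and 297 in *rdo2-1* and 325, 291 and 322 in L*er*. *AT1G73760*, another RING finger gene, differed from L*er* by 0.98 in *hub1-2*, 0.84 in *rdo3* and -0.21 in *rdo2-1*. For both genes the arrays of *hub1-2* and *rdo3* lay above all arrays of *rdo2-1* and L*er*. *AT3G09480*, annotated as a histone H2B, the protein that HUB1 modifies, had 109.6, 165 and 187 in *hub1-2*, 113, 90.6 and 95.6 in *rdo3*, 52.2, 106 and 41.8 in *rdo2-1* and 67.2, 65.6 and 58.4 in L*er*. Here 1 *rdo2-1* array fell among those of *rdo3*. *PMZ*, a zinc finger gene of the stress-associated protein family, differed from L*er* by 0.93 in *hub1-2*, 1.07 in *rdo3* and -0.18 in *rdo2-1*. For *AT3G11580*, annotated as a DNA-binding protein, these values were 1.13 in *hub1-2*, 0.63 in *rdo3* and 0.01 in *rdo2-1*, and for *SRO5*, a relative of the stress regulator RCD1, 0.92 in *hub1-2*, 0.68 in *rdo3* and 0.24 in *rdo2-1*.

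Of 3 members grouped under ribosomes and ribosomal RNA, *SVR1* encodes a plastid pseudouridine synthase that modifies ribosomal RNA. *AT5G24490* is annotated as a small subunit ribosomal protein and *AT3G20230* as a member of the large subunit L18 family. *SVR1* had 259, 247 and 331 in *hub1-2*, 156, 150.2 and 125 in *rdo3*, 98.6, 142 and 52.2 in *rdo2-1* and 85.1, 90.2 and 98.8 in L*er*. *AT5G24490* had 64.6, 42.8 and 67.9 in *hub1-2*, 17.6, 13.8 and 13.6 in *rdo3*, 9.64, 13.3 and 10.5 in *rdo2-1* and 13.4, 9.41 and 6.74 in L*er*. *AT3G20230* had 117, 134 and 132 in *hub1-2*, 78.7, 87.4 and 77.9 in *rdo3*, 52.6, 72.8 and 46.2 in *rdo2-1* and 48.3, 56.1 and 48.8 in L*er*. All 3 had *hub1-2* highest and *rdo3* next, as had 43 of the 65 members in value, and the rule itself places *rdo2-1* and L*er* lowest. Their log2 difference from L*er* was 1.32 to 2.60 in *hub1-2* and 0.65 to 0.67 in *rdo3*. In *SVR1*, *rdo2-1* replicate 2 (142) was above *rdo3* replicate 3 (125). In *AT5G24490* the lowest *rdo3* array (13.6) was barely above the highest L*er* array (13.4). *SVR1* is the only gene of the set with another probe set named for it, whose mean intensities were 37.4 in *hub1-2*, 21.3 in *rdo3*, 15.1 in *rdo2-1* and 15.5 in L*er*. It missed the rule by its *rdo3* difference of 0.496.

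Transport, membrane lipids and metal binding accounted for 5 members. *PMT6*, a polyol transporter gene, had 87.6, 67.9 and 100.6 in *hub1-2*, 60.8, 120.2 and 83.9 in *rdo3*, 32.3, 47.5 and 15.2 in *rdo2-1* and 32.7, 36.9 and 27 in L*er*. All 6 arrays of *hub1-2* and *rdo3* were above all 6 of *rdo2-1* and L*er*, and *rdo2-1* replicate 3 was the lowest of the 12. *AtMT4b*, encoding a seed metallothionein that binds metal ions, had 7214, 8227 and 8497 in *hub1-2*, 5366, 6666 and 5492 in *rdo3*, 3831, 6231 and 3883 in *rdo2-1* and 3945, 4308 and 3349 in L*er*. Its *hub1-2* arrays were above all *rdo3* arrays, and the second *rdo2-1* array lay among those of *rdo3*. *GPAT2*, a glycerol-3-phosphate acyltransferase gene, differed from L*er* by 1.25 in *hub1-2*, 0.80 in *rdo3* and -0.03 in *rdo2-1*. The values of *ALIS5*, encoding a subunit of lipid flippases, were 0.78 in *hub1-2*, 0.89 in *rdo3* and 0.17 in *rdo2-1*, and those of *AT2G35730*, with a heavy-metal-associated domain, were 0.83 in *hub1-2*, 1.45 in *rdo3* and 0.26 in *rdo2-1*.

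Primary metabolism was represented by 3 members. *NIC2*, encoding a nicotinamidase of the pathway that recycles nicotinamide into NAD, had 199.7, 164 and 240.1 in *hub1-2*, 131, 135 and 119 in *rdo3*, 102, 103 and 49.3 in *rdo2-1* and 76.1, 75.97 and 79.4 in L*er*. All *hub1-2* arrays were above all *rdo3* arrays, and all *rdo3* arrays above those of *rdo2-1* and L*er*. *DIN4*, a gene induced in the dark that encodes a subunit of the branched-chain ketoacid dehydrogenase, had 29.2, 44.5 and 45.8 in *hub1-2*, 89.9, 46.2 and 34.4 in *rdo3*, 44.95, 20.1 and 17.1 in *rdo2-1* and 26.9, 21.97 and 14.6 in L*er*. One array of *rdo3* and one of *rdo2-1* stood well above the others of their genotype. *NUDX13*, a nudix hydrolase gene, differed from L*er* by 1.35 in *hub1-2*, 0.92 in *rdo3* and 0.03 in *rdo2-1*.

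For the remaining 28 members no role is stated here, though some may belong to the groups above. Their mean log2 difference from L*er* was 0.51 to 1.99 in *hub1-2*, 0.50 to 1.58 in *rdo3* and -0.25 to 0.29 in *rdo2-1*. Of these, 19 have a single gene, namely *AT5G03700*, *AT5G58840*, *AT1G69890*, *AT3G19660*, *AT3G55890*, *AT1G19530*, *AT3G62920*, *AT3G46600*, *AT5G15510*, *AT3G48710*, *AT5G24210*, *AT3G16280*, *AT3G04820*, *AT2G33390*, *AT4G33980*, *AT3G59040*, *AT3G11760*, *AT5G01750* and *AT2G01480*, and 9 probe sets could not be given a single gene. *AT5G03700*, annotated with a PAN domain, had the largest margin of all members, with its lowest *hub1-2* or *rdo3* array 1.09 above its highest L*er* array on the log2 scale. Its values were 34.03, 33.2 and 44.7 in *hub1-2*, 29.3, 49.04 and 30.2 in *rdo3*, 10.8, 13.4 and 9.76 in *rdo2-1* and 13.4, 13.8 and 11.1 in L*er*. *AT5G58840* had 25.2, 21.1 and 31.9 in *hub1-2*, 24.6, 31.9 and 25.6 in *rdo3*, 10.04, 15.7 and 12.3 in *rdo2-1* and 11.5, 12.1 and 13.7 in L*er*, also with no overlap between the higher 6 and the lower 6 arrays. For both genes the *rdo2-1* and L*er* values were close to the array median of 11.6 to 12.1. The size of their margins and differences from L*er* is therefore uncertain. *AT1G19530* had nearly equal levels in both mutants, with 1823, 1903 and 2045 in *hub1-2*, 1809, 2115 and 2091 in *rdo3*, 1343, 1340 and 1205 in *rdo2-1* and 1047, 1329 and 853 in L*er*, and *rdo2-1* was at the upper end of its window at 0.29. *AT1G69890* differed from L*er* by 1.00 in *hub1-2* and 0.98 in *rdo3*, *AT3G19660* by 0.91 in *hub1-2* and 0.96 in *rdo3*, and *AT3G55890*, of the yippee family, by 0.94 in *hub1-2* and 0.88 in *rdo3*.

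Whether the members were equally high in both mutants was tested by limma over the 3 *hub1-2* and 3 *rdo3* arrays, with Benjamini-Hochberg adjusted p-values over all kept probe sets and a threshold of 0.01. Of the 65 members, 8 were called (12.3%), a share close to that of all kept probe sets, of which 1644 (11.2%) were called. Of these 8, 7 (10.8% of the members) were higher in *hub1-2*, beside 6.48% of the kept probe sets, and 1 (1.54%) was lower, beside 4.74%. The excess of higher calls is not free of the rule, as *AT5G24490*, *CRF1*, *AT2G36970* and *MPK14* had *rdo3* means under 24 and entered only through *hub1-2*. With means over 24 in both mutants, an alternative chosen after seeing the data, 6 of 61 members were called (9.84%), 5 higher (8.2%) and 1 lower (1.64%), beside 12.9% of 8882 kept probe sets, 7.66% higher and 5.2% lower. The median log2 difference of *hub1-2* from *rdo3* was 0.12 over the members and 0.022 over the kept probe sets, and the median absolute difference was 0.23 and 0.25. In value, 43 members were higher in *hub1-2* and 22 were lower, and 30 differed by less than 0.2. The kept probe sets were not counted in this way, and the floor in *hub1-2* alone favors members that are higher there. All *hub1-2* arrays lay above all *rdo3* arrays in 18 members (27.7%), beside 24.7% of the kept probe sets, and below in 3 (4.62%), beside 19.2%, and the arrays overlapped in 44. At an unadjusted p under 0.05, 24 members and 5736 of the kept probe sets passed. Without *rdo3* replicate 2, 15 members were called (23.1%), all 8 among them, beside 15.9% of the kept probe sets. The other fits with an array left out called fewer. Of the members, 5 (7.69%) were called without *hub1-2* replicate 1 and 5 without *rdo3* replicate 1, beside 5.15% and 6.43% of the kept probe sets. It was 4 (6.15%) without *hub1-2* replicate 2, *hub1-2* replicate 3 or *rdo3* replicate 3, beside 4.38%, 4.22% and 3.49%.

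**Figure D3:**
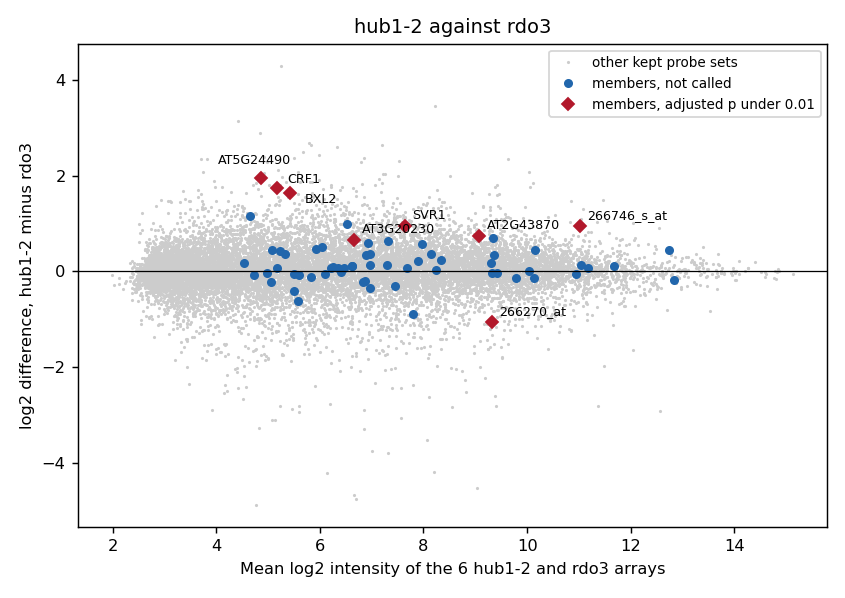
Log2 difference of *hub1-2* minus *rdo3* against the mean log2 intensity of the 6 arrays of both mutants, for the members (blue circles not called, red diamonds called at an adjusted p under 0.01) and the other kept probe sets (grey). The 8 called members are labelled, 7 of them above 0 and 1, 266270_at, below 0, and the only label ending in _s_at is the glutathione S-transferase probe set.

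*AT5G24490*, the small subunit ribosomal protein gene, averaged 58.4 ± 13.6 in *hub1-2* and 15.04 ± 2.24 in *rdo3* (SD, n = 3 each), a log2 difference of 1.94 (standard error 0.21). *CRF1*, the cytokinin response factor, averaged 67.6 ± 19.9 in *hub1-2* and 20.1 ± 5.73 in *rdo3* (SD, n = 3 each), a difference of 1.74 (standard error 0.28). Both are under the floor in *rdo3*, so their differences are given as a description with no p. The beta-xylosidase gene *BXL2* averaged 76.2 ± 2.54 in *hub1-2* and 24.4 ± 0.77 in *rdo3* (SD, n = 3 each), which differed by 1.64 (standard error 0.13, limma adjusted p = 1.6e-04). Of the other ribosome-related genes, *SVR1* was called higher in *hub1-2*, at 0.95 (standard error 0.15, adjusted p = 0.0037) and *AT3G20230* at 0.65 (standard error 0.13, adjusted p = 0.0085). *SVR1* and *AT3G20230* were above 24 in both mutants, *BXL2* only just so in *rdo3*. The polygalacturonase family gene *AT2G43870* was higher in *hub1-2* by 0.73 (standard error 0.12, adjusted p = 0.0043), and the glutathione S-transferase probe set by 0.94 (standard error 0.07, adjusted p = 1.6e-04). The member lower in *hub1-2* was 266270_at, which has no single gene name and averaged 444 ± 16.2 in *hub1-2* and 927 ± 70.2 in *rdo3* (SD, n = 3 each), a difference of -1.06 (standard error 0.09, adjusted p = 2.7e-04). *BXL2* and 266270_at were called in each of 15 other settings, and the glutathione S-transferase probe set in 14 of them. Among the called members over 24 in both mutants, the others were less stable. *AT5G24490* and *CRF1*, under the floor in *rdo3*, are left out of this comparison. *SVR1* and *AT2G43870* were lost in 6 of the 15 settings each and *AT3G20230* in 10, and each of them in at least 4 of the 6 fits with an array left out. The summed silique wall markers (199 to 229 in *hub1-2* and 438 to 544 in *rdo3*) and *AP3* were also lower in *hub1-2*, and their part in these differences was not tested.

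**Figure D4:**
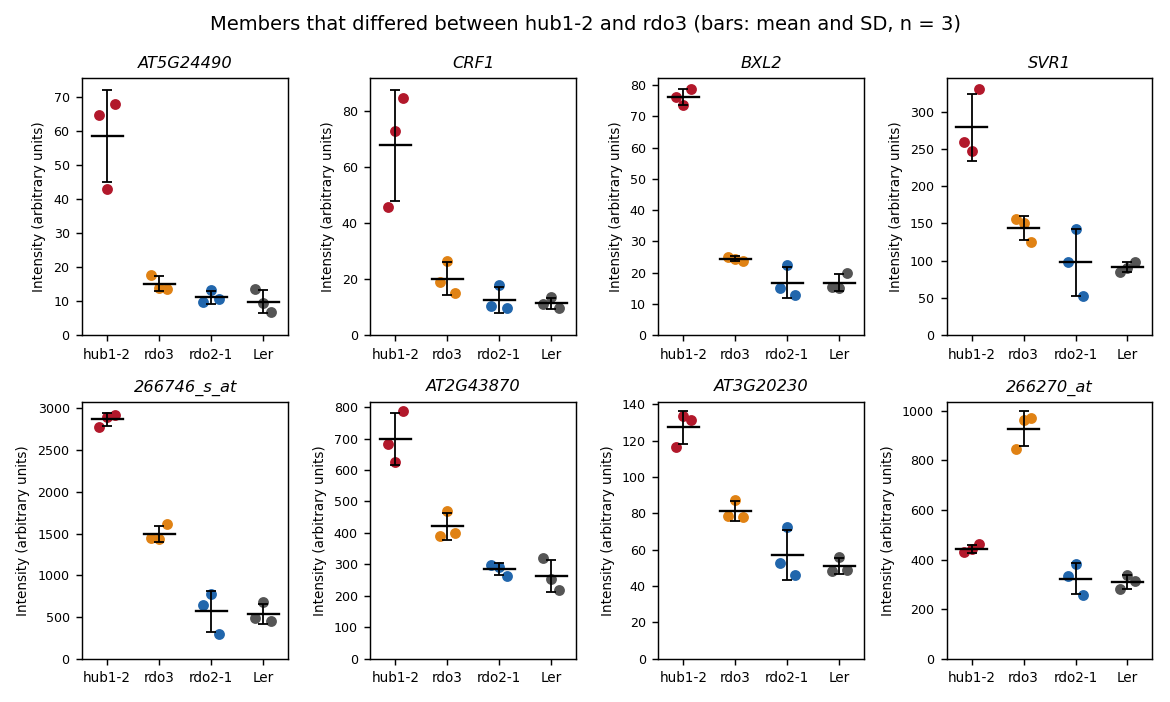
Intensity (linear scale, arbitrary units) of the 8 members called between *hub1-2* and *rdo3*, with 1 point per array for *hub1-2*, *rdo3*, *rdo2-1* and L*er* and bars at the mean and SD (n = 3). In 7 panels the *hub1-2* points lie above all others, and in the panel of 266270_at the *rdo3* points do.

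Several other members differed by 0.45 or more but did not pass the threshold. *KING1* was higher in *hub1-2* by 0.57 (adjusted p = 0.011), *AtMT4b* by 0.45 (adjusted p = 0.011) and *NIC2* by 0.64 (adjusted p = 0.021), all by limma. The unnamed probe set 249941_at was at -0.90 (adjusted p = 0.018). For other members the interval of the difference was narrow around 0. For *AT1G19530* the 95% interval of the log2 difference was -0.25 to 0.14, for *AT4G33980* -0.25 to 0.16 and for *AT5G54000* -0.30 to 0.23. Wider intervals were those of *ELI3-2* (-0.51 to 0.15), *PMT6* (-0.60 to 0.58), *AT5G03700* (-0.45 to 0.59) and *TMK1* (-1.084 to 1.501). The narrow and the wider intervals all leave room for differences of either sign, so none of them shows equal levels in both mutants. *SRO5*, *BIK1* and *UGT74F2*, which differed by 0.24, 0.08 and 0.08, were not called either.

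Of 30 lists of genes that fit maturing siliques, defined by words in the gene descriptions, 10 held a member and 20 held none. Many of the descriptions come from the study's list of genes changed in *hub1-2* or *rdo2-1* on the same arrays, which favors genes that changed, so neither the share of members nor the calls within a list can be set against all probe sets as independent values. By RefSeq names alone the lists were smaller, with 4 of the 31 ribosomal, 35 of the 53 chromatin, 43 of the 67 cell wall and 62 of the 143 ubiquitin probe sets. By these names the ribosomal and chromatin lists held 0 members, cell wall 2, and ubiquitin, cytochrome P450 and transporters 1 each. Every other list held 0 by RefSeq names. Heat shock proteins and factors had 34 kept probe sets and 0 members. Chaperones and protein folding (47 kept probe sets), photosynthesis (29), seed storage and oil body proteins (20), late embryogenesis abundant proteins (13) and flavonoid synthesis (7) also held 0 members. Of all 9195 kept probe sets with a single gene, 55 were members, so 0 members in lists this small says little. The cell wall list held 3 members among 67 kept probe sets, *AT2G43870*, *PGIP1* and *EXLA1*, and in *hub1-2* against *rdo3* limma called 5 of the 67 higher and 18 lower, with a median difference of -0.064. The ribosomal protein list held 2 members among 31, *AT5G24490* and *AT3G20230*, with 16 of the 31 called higher, 5 lower and a median of 0.57. Chromatin and transcription machinery held 1 member among 53, the histone H2B gene *AT3G09480*, with 29 called higher, 2 lower and a median of 0.65. Over all kept probe sets 6.48% were called higher and 4.74% lower, with a median of 0.022. Ubiquitin and proteolysis held 2 among 143, *RHA1B* and *AT1G73760*, with 28 called higher and 19 lower. Glutathione and glycosyl transferases held 2 among 56, peroxidases and redox 2 among 69, and cytochrome P450, transporters, receptor-like kinases and AP2 domain factors 1 each among 38, 111, 20 and 20.

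At the edge of the rule, the members closest to the limit of 0.5 were *AT2G01480* (0.96 in *hub1-2* and 0.50 in *rdo3*), *AT1G60680* (0.84 in *hub1-2* and 0.50 in *rdo3*) and *AT5G01750* (0.64 in *hub1-2* and 0.51 in *rdo3*). Just outside were the other probe set of *SVR1* (1.29 in *hub1-2* and 0.496 in *rdo3*), *FBP* (0.489 in *hub1-2* and 0.52 in *rdo3*) and *ERF104* (0.77 in *hub1-2* and 0.486 in *rdo3*).

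The 55 members with a single gene lie on all 5 chromosomes, with 9 on chromosome 1, 9 on 2, 18 on 3, 8 on 4 and 11 on 5. Chromosome 3 held 32.7% of them, beside 20.2% of the 8895 kept genes that were placed, and chromosome 1 held 16.4%, beside 26.1%. No pair of members was adjacent in the gene order. The closest pair, *UGT74F2* and *AT2G43870* on chromosome 2, had 4 protein-coding genes between them, and the next closest had 17. In *UGT74F2* the log2 difference of *hub1-2* from *rdo3* was 0.08 and in *AT2G43870* it was 0.73.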

How the data were processed

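RNA from siliques of 4 genotypes, 3 arrays each, was measured on Affymetrix ATH1 arrays, and the genotype in the labels set the groups. The deposited intensity values, linear and in arbitrary units, were made by the authors with GC-RMA in Expressionist Pro. The sources used here do not state which arrays were normalized together. The deposited table holds no detection p-values, so the filter on detection could not be repeated. Control probe sets (64 of 22810) were left out, and probe sets were ranked by their second-highest value over the 9 arrays of *hub1-2*, *rdo2-1* and L*er*. The top 14655, the number that passed the filter in the methods, were kept, down to a value of 7.51.

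Values were turned into log2 with no pseudocount. *hub1-2* was compared with *rdo3* by limma 3.58.1 in R 4.3.3 (lmFit and eBayes with a trend, 6 arrays), with Benjamini-Hochberg adjusted p-values over the kept probe sets and calls under 0.01. The fit was also run on simulated data with 200 changed probe sets. Their noise was independent between arrays, so the run is no check of shifts of single arrays, and its outcome is not used here. The methods name 3 independent biological replicates. CyberT, the study's test, filters, scaling, thresholds, a replicate block and each replicate left out were alternatives.

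The members and gene lists were chosen with earlier results of these data known. Genes were named where the platform annotation gives 1 gene (34 members) or through the study's list of changed genes (21 members), which leaves 10 members without a name. Probe sets whose name ends in _s_at (4 members) can bind transcripts of several genes. By the rule for named genes, the text names the 20 members with 1 gene and the highest lower one of both differences from L*er*, called members, up to 4 members of each list, those at the threshold and close neighbours. Other members were named with their values known. The gene order and chromosomes come from RefSeq annotation. The motif search planned for promoters was not run, since the tables used hold no promoter sequences. Tables and plots were made with pandas 2.3.3 and NumPy 2.4.6, and with matplotlib 3.10.9, in Python 3.11.15.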

Additional observations from a re-analysis of the deposited data

How the results depend on the processing

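The rule gave 56 probe sets with each array centred on its median, 57 after quantile normalization, 64 with an *rdo2-1* window of -0.3 to 0.3, 52 with a floor of 48 and 7 with a lower limit of 1 on both differences. With single arrays left out it gave 54 to 91, the fewest without *rdo2-1* replicate 3 and the most without L*er* replicate 1.

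Between *hub1-2* and *rdo3*, 1644 kept probe sets and 8 members were called. CyberT called 2758 and 14, which is 18.8% of the kept probe sets and 21.5% of the members, beside 11.2% and 12.3% in the main fit. An adjusted p under 0.05 gave 3885 and 15, and the replicate number as a block gave 970 and 6. In these settings the member counts rose and fell with those of all kept probe sets. Of them, shares were compared for CyberT only, so nothing particular to the members is concluded from the other counts. The replicate numbers were not shown to pair the arrays, as the deviations of same-numbered arrays correlated at 0.12, -0.03 and -0.04. With single arrays left out, 511 to 2337 probe sets and 4 to 15 members were called, the fewest probe sets without *rdo3* replicate 3 and the most without *rdo3* replicate 2. A fit of fewer arrays has less power, and the cause of the rise without *rdo3* replicate 2 was not tested. The other filters, the prior spread without a trend, a fit of all 12 arrays and both scalings gave 1303 to 1639 probe sets and 6 to 8 members. Of 950 higher and 694 lower calls, centring left 738 and 769, so the direction of the excess over all probe sets depends on the scaling. Counting only probe sets with means over 24 in *hub1-2* and *rdo3*, chosen after seeing the data, left 1142 calls and 6 members. None of the 8 called members changed sign in any of the 15 settings, but most of these could not have reversed a sign. Changes of the filter, test, fit or threshold leave the difference as it is. The *hub1-2* and *rdo3* arrays did not overlap in any of the 8, so leaving an array out cannot reverse it either. The scalings could have. With them the smallest difference of the 8, that of *AT3G20230*, went from 0.646 to 0.595 after centring and 0.577 after quantile normalization. Low intensity limits *AT5G24490*, *CRF1*, *MPK14* and *AT2G36970*, whose L*er* means lay under the median of the array.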
